A study of Mus musculus with 6 samples.

Results

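The genes described here are 10 genes of hepatic gluconeogenesis, glycogen turnover and glucose output: Pcx, Pck1, Fbp1, G6pc, Slc37a4, Slc2a2, Gys2, Pygl, Ppp1r3b and Ppp1r3c. They were chosen by gene symbol for their role in the pathway, with earlier results of these data known. Each was found as 1 Ensembl gene among the 56847 gene IDs of the deposited tables. The data are poly(A) RNA-seq of mouse liver, with 3 libraries labelled normal diet and 3 labelled CDAHFD, a high-fat diet with defined amino acids and no choline that brings on steatohepatitis in rodents. The sources used here give no strain, genotype, sex, age or time on the diet, and nothing there says that each library is a separate animal, so the p-values below measure the spread between these samples. The series title is about ALDH18A1 in steatohepatitis, and its design text asks about lipid metabolism and mitochondrial function. Glucose output was not among the questions the submitters named.

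The liver keeps blood glucose up between meals in 2 ways, by breaking down glycogen and by making glucose from lactate, amino acids and glycerol. Pyruvate carboxylase, phosphoenolpyruvate carboxykinase and fructose-1,6-bisphosphatase carry gluconeogenesis past the irreversible steps of glycolysis. Both routes end at glucose-6-phosphate, which a transporter carries into the endoplasmic reticulum, where glucose-6-phosphatase frees glucose. Glycogen synthase and glycogen phosphorylase build and break the polymer, and glycogen-targeting subunits bring protein phosphatase 1 to both enzymes. In fasting, glucagon and glucocorticoids induce G6pc and Pck1, and insulin represses them.

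Library totals, as sums of the deposited counts, were 21986215 to 25628531. Levels are given as CPM, counts scaled to one library total after TMM normalisation, or, where genes are compared with each other, as the deposited TPM, which are scaled by gene length. Each change is a log2 fold (CDAHFD over normal diet, ± standard error) from edgeR's quasi-likelihood test on 14215 genes, n = 3 libraries per diet. A gene is said to have fallen or risen where its Benjamini-Hochberg adjusted p over all these genes was below 0.05. The summed level of 12 hepatocyte markers such as Alb was 137756 to 156142 CPM with normal diet and 100385 to 112279 CPM with CDAHFD. Alb made up most of these sums (means of 101386 and 73248 CPM), so the hepatocyte marker scale used below rests mostly on it. With total counts alone as the scale, the 12 markers had a median change of -0.11. There 4 were lower, 1 was higher and 7 did not pass, against 1147 lower and 6258 higher of all 14215 genes. In bulk tissue, fewer hepatocytes and less RNA per hepatocyte cannot be told apart.

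All 10 genes passed the filter on low counts, and 9 of them fell on CDAHFD while Pcx did not pass. The fall was about 5-fold for G6pc (4.93-fold) and Ppp1r3c (5.05-fold), 3.59-fold for Ppp1r3b and 2.04-fold for Pck1, and between 1.58-fold and 1.88-fold for Slc2a2, Slc37a4, Fbp1, Gys2 and Pygl. Among all genes tested 23.5% fell, and every CDAHFD library lay below every normal diet library for 28.4% of them, against 9 of these 10. Of the 12 hepatocyte markers 8 fell too and 4 did not pass, with a median of -0.43. The median change of the 10 genes was -0.89, that of all genes tested 0.013. In the order of changes, 0.549% of all genes tested had a lower change than Ppp1r3c, 0.57% a lower one than G6pc and 0.978% a lower one than Ppp1r3b, whereas 51.3% lay below Pcx.

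The promoters of G6pc, Pck1 and Ppp1r3c are shown because these 3 genes fell the most among the 8 with a promoter at hand, one each for glucose release, gluconeogenesis and glycogen. Each run is the 250 bases before the annotated start in RefSeq's assembly GRCm38.p6, read on the gene's strand. It is an older build than the GRCm39 of the submitters' processing notes. Capitals mark exact matches to the searched motifs on either strand. The G6pc window is chr11:101367466-101367715 on the plus strand, the Pck1 window chr2:173152823-173153072 on the plus strand, and the Ppp1r3c window chr19:36736605-36736854 on the minus strand.
G6pc: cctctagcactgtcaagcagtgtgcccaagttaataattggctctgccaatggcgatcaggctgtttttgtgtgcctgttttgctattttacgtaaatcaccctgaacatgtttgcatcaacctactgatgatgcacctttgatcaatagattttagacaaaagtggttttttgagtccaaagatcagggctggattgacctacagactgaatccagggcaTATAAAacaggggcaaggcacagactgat
Pck1: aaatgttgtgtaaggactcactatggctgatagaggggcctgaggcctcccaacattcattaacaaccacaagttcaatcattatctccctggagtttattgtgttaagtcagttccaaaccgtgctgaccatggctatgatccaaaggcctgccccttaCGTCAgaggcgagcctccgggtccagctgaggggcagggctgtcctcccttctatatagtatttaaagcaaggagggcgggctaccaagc
Ppp1r3c: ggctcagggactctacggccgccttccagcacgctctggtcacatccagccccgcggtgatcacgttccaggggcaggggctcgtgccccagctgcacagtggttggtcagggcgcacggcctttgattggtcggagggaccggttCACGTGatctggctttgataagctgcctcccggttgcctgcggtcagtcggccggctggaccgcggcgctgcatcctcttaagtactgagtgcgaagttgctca

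In G6pc the capitals are a TATA box (TATAAA), from base 29 to base 24 before the start, which 12.4% of all 32851 promoters in the table hold. In Pck1 they are the short core of the cyclic AMP response element (TGACG, here on the opposite strand) at bases 90 to 86, held by 17.8% of all promoters. In Ppp1r3c they are an E-box (CACGTG) at bases 104 to 99, held by 6.02%. Promoters were at hand for 8 of the 10 genes, in 11 windows, of which Slc37a4 had 3 and Pcx 2. The percentages count single promoters, so a gene with several windows has more chances of a match. Pck1, Pygl and windows 1 and 2 of Slc37a4 had the short core TGACG, and G6pc, Fbp1, Pcx, Slc2a2 and Ppp1r3c did not. The E-box was also in window 1 of Pcx, which did not fall, and the TATA box in window 3 of Slc37a4. Within these windows no searched motif was common to the genes that fell. None of the 8 held the whole element (TGACGTCA, which contains the short core), the FOXO and FOXA core TGTTTAC, the HNF4 core CAAAGTCCA or the glucocorticoid receptor core TGTTCT, which 1.55%, 3.17%, 0.384% and 16.1% of all promoters hold. A match or its absence describes these letters and says nothing about binding.

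Gluconeogenesis begins with Pcx (ENSMUSG00000024892), the mitochondrial carboxylase that turns pyruvate into oxaloacetate. Its levels were 648, 586 and 628 CPM in normal diet replicates 1 to 3 and 618, 641 and 645 CPM in the CDAHFD libraries. The groups overlapped, and the change was 0.032 ± 0.10 (adjusted p = 0.817). In the deposited TPM, which carry no TMM factor, the same gene read 321, 316 and 312 on normal diet against 409, 407 and 435 on CDAHFD, and the groups did not overlap. Pcx was called higher with total counts alone (0.36 ± 0.11, adjusted p = 0.0123). Its TMM value lay beside the median gene, and so did the value with total counts, where the median gene stood at 0.34.

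Pck1 (ENSMUSG00000027513), the cytosolic carboxykinase that makes phosphoenolpyruvate, was the most abundant of the 10 genes in TPM on both diets. Its levels were 5621, 5033 and 4025 CPM on normal diet against 2643, 2693 and 1876 CPM on CDAHFD. The highest CDAHFD library held less than the lowest normal diet library, although the libraries of 1 diet differed among themselves by up to 1.44-fold. The change was -1.03 ± 0.17 (adjusted p = 0.000479). Fbp1 (ENSMUSG00000069805), which removes a phosphate from fructose-1,6-bisphosphate, stood at 1197 ± 111 CPM on normal diet and 661 ± 83.1 CPM on CDAHFD (mean ± SD, n = 3). It fell by 0.86 ± 0.13 on the log2 scale (adjusted p = 0.000221), again with no overlap between the diets.

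G6pc (ENSMUSG00000078650), the catalytic subunit of glucose-6-phosphatase, had 10076, 5874 and 7454 counts on normal diet against 2274, 2001 and 1815 on CDAHFD. On the CPM scale these were 495, 288 and 373 against 92.1, 71.6 and 70.7. Normal diet replicate 1 was the highest and was 1.72 times the lowest library of its diet, yet the lowest normal diet library was still above the highest on CDAHFD. The change was -2.30 ± 0.19 (adjusted p = 2.55e-06), and -2.09 without normal diet replicate 1. Slc37a4 (ENSMUSG00000032114), the transporter that feeds glucose-6-phosphate to this enzyme, fell from 301, 222 and 277 CPM to 143, 169 and 153 CPM (-0.78 ± 0.13, adjusted p = 0.000453). Slc2a2 (ENSMUSG00000027690), the facilitative glucose transporter of the hepatocyte surface, had the smallest change of the 9 that fell. It stood at 539, 541 and 505 CPM on normal diet against 345, 332 and 329 CPM on CDAHFD (-0.66 ± 0.10, adjusted p = 0.000269).

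**Figure D1:**
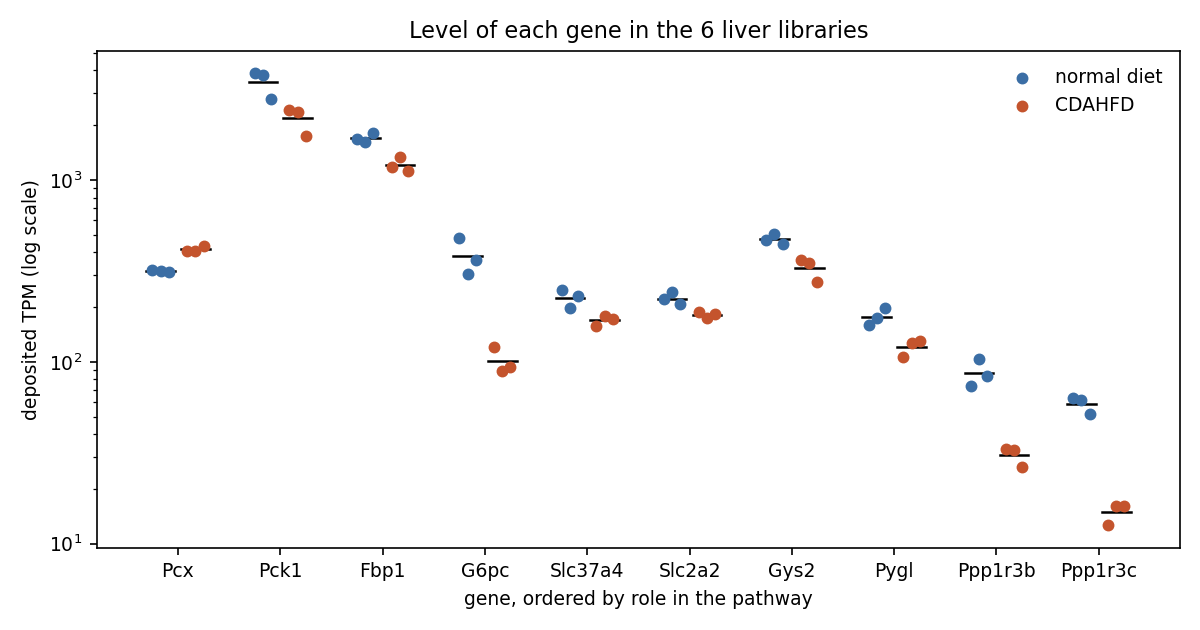
Deposited TPM (log axis) of each of the 10 genes in the 3 normal diet and 3 CDAHFD libraries. Points are libraries and black bars are group means. G6pc went from 305 to 482 TPM on normal diet to 89.5 to 120 on CDAHFD, and Pcx is the one gene whose CDAHFD points lie above those of the normal diet on this scale.

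All 4 glycogen genes fell, with changes of -0.88 and -0.91 for the 2 enzymes and of -1.85 and -2.34 for the 2 targeting subunits. Gys2 (ENSMUSG00000030244), the liver glycogen synthase, went from 527, 522 and 499 CPM to 307, 306 and 229 CPM, a change of -0.88 ± 0.13 (adjusted p = 0.000193). Pygl (ENSMUSG00000021069), the liver glycogen phosphorylase, went from 464, 470 and 574 CPM to 234, 290 and 280 CPM (-0.91 ± 0.13, adjusted p = 0.000147). Neither enzyme overlapped between the diets, and CDAHFD replicate 3 was the lowest for Gys2 and CDAHFD replicate 1 for Pygl.

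Ppp1r3b (ENSMUSG00000046794) encodes the main hepatic glycogen-targeting subunit, through which protein phosphatase 1 activates glycogen synthase. Its levels were 194, 250 and 219 CPM on normal diet against 65.9, 67.4 and 51.3 CPM on CDAHFD (-1.85 ± 0.14, adjusted p = 1.36e-06). Ppp1r3c (ENSMUSG00000067279), also called PTG, is another such subunit. It was the least abundant of the 10 genes in TPM, with 1493, 1332 and 1190 counts on normal diet against 270, 406 and 351 on CDAHFD. In CPM it went from 73.3, 65.3 and 59.5 to 10.9, 14.5 and 13.7, so the CDAHFD libraries kept 19.8% of the normal diet level in the fit (-2.34 ± 0.13, adjusted p = 2.25e-07).

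Compared per length, in TPM, the order on normal diet was Pck1, Fbp1, Gys2, G6pc, Pcx, Slc37a4, Slc2a2, Pygl, Ppp1r3b and Ppp1r3c. The ranges of Gys2 and G6pc overlapped, as did those of G6pc and Pcx and of Slc37a4 and Slc2a2. On CDAHFD the order was Pck1, Fbp1, Pcx, Gys2, Slc2a2, Slc37a4, Pygl, G6pc, Ppp1r3b and Ppp1r3c, with overlap between Slc2a2 and Slc37a4 and between Pygl and G6pc. G6pc moved from rank 4 to rank 8 and Pcx from rank 5 to rank 3.

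The scaling of the libraries set the size of these changes but few of the calls. TMM factors were 0.877 to 0.907 on normal diet and 1.09 to 1.14 on CDAHFD. With total counts alone the median of all genes was 0.34 and 8.07% of genes fell, and 9 of the 10 still fell. With libraries scaled to the summed counts of the hepatocyte markers the median of all genes was 0.44 and 5.3% fell, and 8 of the 10 did. There G6pc changed by -1.86 ± 0.17, Ppp1r3c by -1.90 ± 0.16 and Ppp1r3b by -1.43 ± 0.16, while Pck1 changed by -0.60 ± 0.14. Slc2a2 no longer passed against the hepatocyte markers (-0.22 ± 0.14, adjusted p = 0.173), Slc37a4 passed at adjusted p = 0.0459, and Pcx rose by 0.47 ± 0.14 (adjusted p = 0.00525). The hepatocyte markers had a TMM median of -0.43, against -2.30 for G6pc and -0.66 for Slc2a2.

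**Figure D2:**
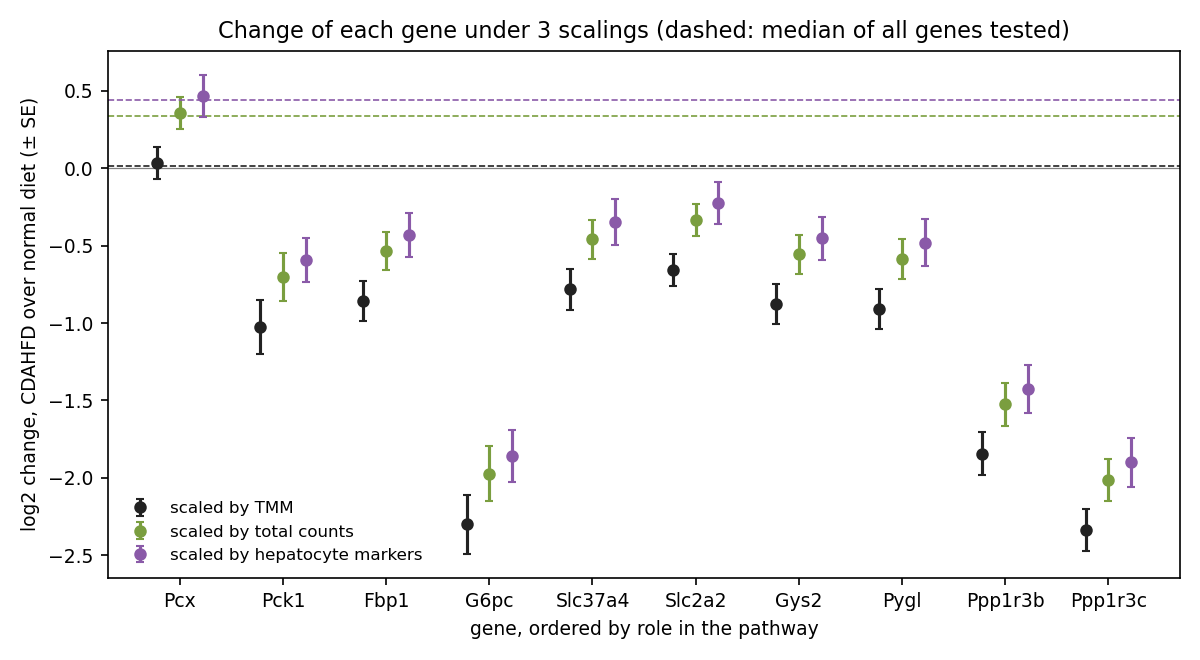
Log2 change of each gene (CDAHFD over normal diet, ± standard error) with TMM scaling, with total counts and with the summed hepatocyte markers as the scale. Dashed lines give the median of all genes tested at 0.013, 0.34 and 0.44. G6pc, Ppp1r3b and Ppp1r3c stay the lowest under all 3 scalings, and Pcx is near the dashed line of each.

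Ratios of genes within a library are free of this scaling, and 10 of them were computed from the TPM, with an exact permutation test (both sides) on their logarithms. With 3 libraries against 3 the exact test cannot go below p = 0.10, and for 8 ratios the diets did not overlap and the exact test gave that value (0.125 adjusted over the 10 ratios). The ratio of G6pc to Slc37a4, the enzyme and its transporter, was 1.95, 1.53 and 1.59 on normal diet against 0.764, 0.501 and 0.547 on CDAHFD. The ratio was below 1 in all 3 CDAHFD libraries and above 1 in all 3 normal diet libraries. Pck1 over Pcx, the 2 enzymes that act in turn on the way to phosphoenolpyruvate, dropped from 12, 11.9 and 8.88 to 5.93, 5.82 and 4.03.

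The other 2 ratios overlapped between the diets. Gys2 over Pygl was 2.94, 2.88 and 2.25 on normal diet against 3.41, 2.74 and 2.12 on CDAHFD, a log2 difference of 0.017 ± 0.23 (SE; exact permutation p = 1). Ppp1r3b over Ppp1r3c was 1.16, 1.68 and 1.62 on normal diet against 2.64, 2.04 and 1.64 on CDAHFD, a difference of 0.50 ± 0.26 (exact permutation p = 0.2). Neither p shows that the balance was the same on both diets.

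Several genes of the same families as those that fell were called higher, as were 28.5% of all genes tested: Pck2, Pygb, G6pc3, Gys1 and Slc2a1, and also Fbp2 and the targeting subunit Ppp1r3d. The last 2 were named after their values were seen and were scarce, with 3, 4 and 7 against 12, 13 and 20 counts for Fbp2 and 7, 7 and 4 against 22, 24 and 21 counts for Ppp1r3d. Fbp2 did not pass with DESeq2 (adjusted p = 0.111), with no filter on low counts (0.0642), or without normal diet replicate 1 or 2 or CDAHFD replicate 1 or 3 (0.0559 to 0.141). Not every family member rose. Slc2a3 did (2.02 ± 0.34), but it was scarce too, with 5, 9 and 9 against 38, 50 and 34 counts. Slc2a9 fell by 0.63 ± 0.13, and Slc2a5, Slc2a8, Ppp1r3e and Ppp1r3g did not pass. These too were named after their values were seen. Pck2, the mitochondrial carboxykinase, had 48, 37 and 61 counts on normal diet against 389, 349 and 506 on CDAHFD. It rose by 2.73 ± 0.23 (adjusted p = 2.55e-06) from 2.41 ± 0.619 to 16 ± 3.63 CPM. Pck1 remained far above it, at 3005 to 6320 times its TPM on normal diet and 217 to 491 times on CDAHFD. Pygb, the brain-type phosphorylase, rose from 6.38, 5.39 and 7.8 CPM to 20.4, 16.8 and 23 CPM (1.62 ± 0.17, adjusted p = 1.52e-05). The ratio of Pygl to Pygb accordingly went from 50.7, 60.8 and 51.4 to 8, 12.1 and 8.51.

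G6pc3, the ubiquitous glucose-6-phosphatase, rose by 0.59 ± 0.15 (adjusted p = 0.00611) from 4.95 ± 0.134 to 7.47 ± 0.288 CPM, and on CDAHFD it read 10.5 ± 0.712 TPM against 101 ± 16.5 TPM for G6pc. Gys1, the muscle-type synthase, rose by 0.60 ± 0.21 (adjusted p = 0.0302) from only 45, 58 and 61 counts. Slc2a1, the widespread glucose transporter, rose by 0.48 ± 0.16 (adjusted p = 0.0285). These last 2 calls were fragile. Gys1 no longer passed without normal diet replicate 1 or 2 or CDAHFD replicate 2 or 3 (adjusted p = 0.0506 to 0.112), nor Slc2a1 without normal diet replicate 1 or 2 or CDAHFD replicate 1 or 3 (0.0693 to 0.151). Gys2 was 295 to 430 times Gys1 on normal diet and 95.5 to 159 times on CDAHFD, and Slc2a2 over Slc2a1 went from 14.3 to 24.3 down to 7.61 to 8.99. Fbp1 was 114 to 118 times Pfkl, the liver phosphofructokinase that opposes it, on normal diet and 41.2 to 68.5 times on CDAHFD, while Pfkl itself did not pass with TMM (0.23 ± 0.13, adjusted p = 0.168) and was called higher with total counts (0.56 ± 0.14, adjusted p = 0.00454).

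**Figure D3:**
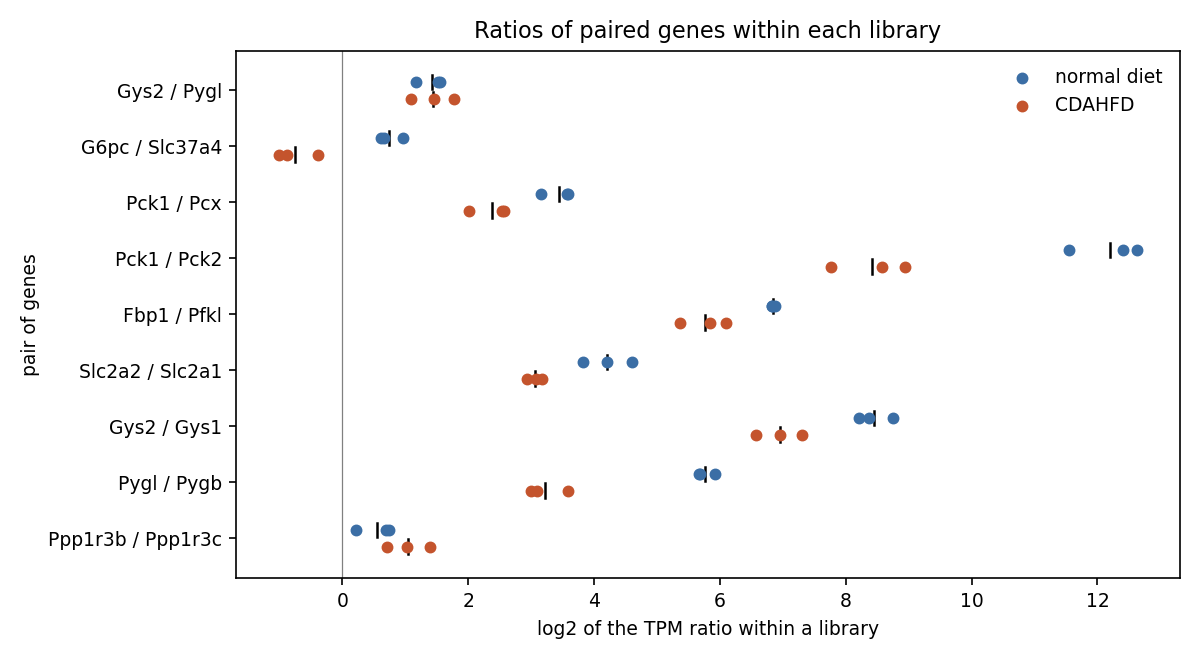
Log2 of the TPM ratio of 9 gene pairs within each library, with normal diet and CDAHFD libraries as points and group means as black bars. Only Gys2 / Pygl and Ppp1r3b / Ppp1r3c overlap between the diets, and the widest gap is that of Pck1 / Pck2.

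RNA of other cell types moved with these isozymes. The summed level of 8 macrophage markers ran from 359 to 485 CPM on normal diet and from 1705 to 1797 CPM on CDAHFD, and 7 of the 8 rose. For the 6 stellate cell and fibroblast markers, all of which rose, the ranges were 50.8 to 67.6 and 497 to 746 CPM. The 5 cholangiocyte markers all rose, from 26.9 to 33.4 to 157 to 201 CPM, and so did the 4 leukocyte markers, from 10.8 to 11.4 to 40.2 to 58.4 CPM. Of 5 endothelial markers 1 rose, with sums of 239 to 260 and 254 to 285 CPM. No marker of these 5 lists was at 0 in all libraries. Their part in the rise of Pck2, Pygb, G6pc3, Gys1, Slc2a1, Fbp2 and Ppp1r3d, or in the fall of the liver genes, was not tested.

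Kidney tubule also makes glucose, and its markers were near 0: Kap was at 0 in all libraries, and Slc34a1, Umod and Lrp2 had at most 29 counts. Their sums were 0.98 to 1.45 CPM on normal diet and 0.122 to 0.25 CPM on CDAHFD. Of the intestinal markers Sis was at 0 in all libraries and Vil1 had few counts. The list summed to 36.7 to 53.1 and 55.7 to 62.1 CPM, nearly all of it from 1 gene, Fabp2 (up to 1550 counts). Skeletal muscle markers (Acta1 at 0) summed to at most 0.882 CPM and adipocyte markers (Lep at 0) to at most 0.162 CPM in any library. Of these 4 lists 1 kidney marker (Lrp2, lower), 1 intestinal marker (Fabp2, higher) and 1 muscle marker (not passed) were tested, the first 2 named after their values were seen. Fabp2 did not pass without normal diet replicate 1 or 3 or CDAHFD replicate 1 (adjusted p = 0.0788 to 0.115).

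The rest of the gluconeogenic route was represented by 30 other enzymes and substrate carriers. Of the 29 tested, 12 fell (against 23.5% of all genes), 5 rose (against 28.5%) and 12 did not pass, with a median of -0.19. The median was 0.13 with total counts (9 rose and 4 fell) and 0.25 with the hepatocyte markers as scale, below the median of all genes in each case. With total counts 6258 of all 14215 genes rose and 1147 fell. Among those that fell were the glycerol-3-phosphate dehydrogenase genes Gpd1 (-1.34 ± 0.13, from 422 ± 74.4 to 167 ± 9 CPM) and Gpd2 (-0.93 ± 0.12), which pass glycerol into the pathway, and Mdh1 (-0.90 ± 0.14), which returns malate to oxaloacetate in the cytosol. The 5 that rose were Pck2, G6pc3, Mpc1, Ldhb and Fbp2, of which Mpc1 and Ldhb were named after their values were seen, and Pck2 had the largest change of them. Mpc1 did not pass with DESeq2 (adjusted p = 0.0754), with no filter on low counts (0.0689), with RLE scaling (0.0555), with a replicate block (0.0622), or without normal diet replicate 1 or 2 or CDAHFD replicate 1 or 2 (0.0832 to 0.206).

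Of 28 other genes of glycogen metabolism 25 were tested, of which 7 fell, 6 rose and 12 did not pass (median -0.14, or 0.19 with total counts, with 9 higher and 2 lower). The TMM counts are near the 23.5% and 28.5% of all genes that fell and rose. With total counts 6258 of all 14215 genes were higher and 1147 lower. The lowest of the 7 that fell was Pgm1, the main hepatic phosphoglucomutase, named after its values were seen, at -0.77 ± 0.11, against -1.85 and -2.34 for Ppp1r3b and Ppp1r3c. Those that rose were scarce: Pygb, Pgm2 (1.40 ± 0.14, from 6.32 ± 0.385 to 16.7 ± 2.14 CPM), the muscle phosphorylase Pygm (1.09 ± 0.28, from 31, 18 and 24 counts) and Gyg, the glycogenin that primes new chains (0.98 ± 0.13, from 7.65 ± 0.433 to 15.1 ± 0.722 CPM) among them.

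A list of glucose entry, glycolysis and pyruvate dehydrogenase kinase genes held 9 of 23 that rose, 9 that fell and a median of -0.15 (11 higher and 4 lower with total counts). Against 28.5% of all genes tested that rose, 9 of 23 rose here, and 9 of 23 fell against 23.5%. With total counts 6258 of all 14215 genes were higher and 1147 lower. Hk3, a hexokinase of myeloid cells, rose by 2.98 ± 0.20 to 28 ± 5.82 CPM, Pkm, the pyruvate kinase of most other tissues, by 2.82 ± 0.12 from 16.5 ± 2.13 to 117 ± 4.68 CPM, and Pfkfb4 by 3.24 ± 0.33 from 6, 20 and 17 counts. Pdk4, which shuts pyruvate dehydrogenase in fasting, rose by 2.84 ± 0.27 from 4.67, 6.71 and 6.95 CPM to 60.9, 26.5 and 44.1 CPM. Pklr, the liver pyruvate kinase, named after its values were seen, fell by 1.26 ± 0.18.

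**Figure D4:**
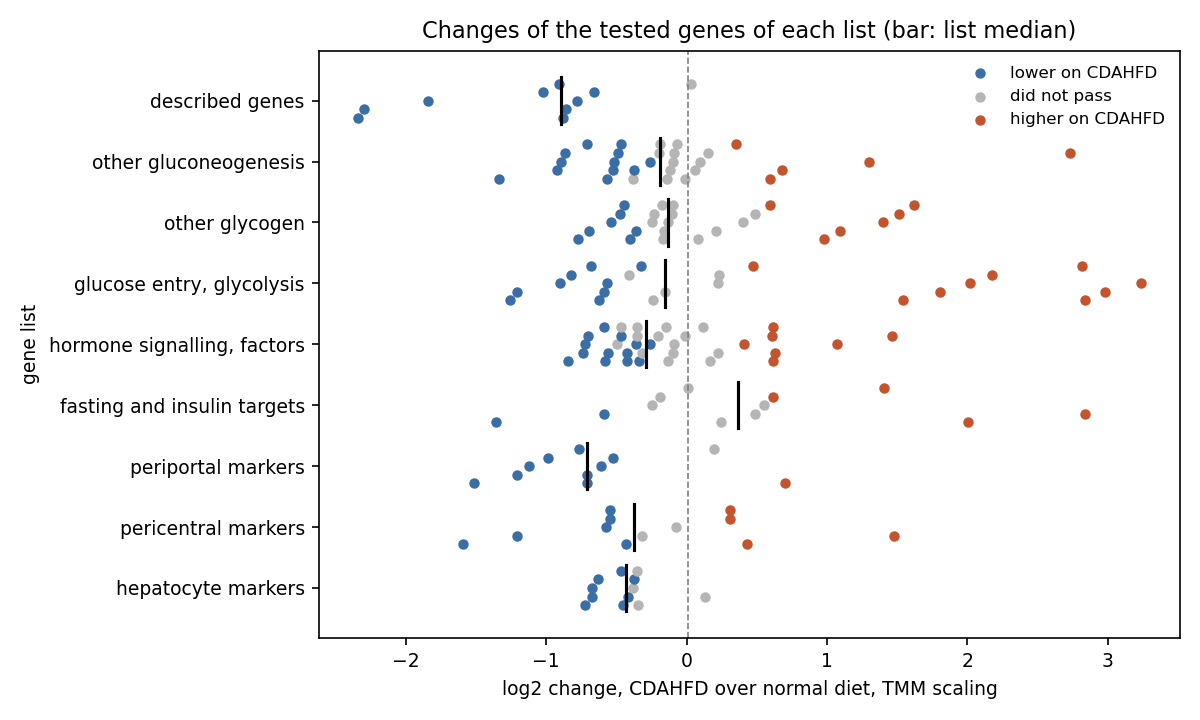
Log2 change (TMM scaling) of the tested genes of each list, coloured by whether they were higher, lower or did not pass at an adjusted p of 0.05. Black bars are list medians and the dashed line is the median of all genes tested. The median of the 10 described genes is -0.89, against -0.19 and -0.14 for the other gluconeogenesis and glycogen genes and -0.43 for the hepatocyte markers.

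Hormone signalling was represented by 34 genes. Of these receptors, kinases and transcription factors 13 fell (against 23.5% of all genes), 7 rose (against 28.5%) and 14 did not pass, with a median of -0.29. With total counts the median was 0.035, with 10 higher and 4 lower, against 6258 higher and 1147 lower of all 14215 genes. Gcgr, the glucagon receptor, stood at 222 ± 22.9 and 201 ± 5.24 CPM and did not pass (-0.15 ± 0.11, adjusted p = 0.279). Its sign turned with total counts (0.18 ± 0.11, adjusted p = 0.203). Insr, the insulin receptor, fell by 0.74 ± 0.12 (adjusted p = 0.000428), and Foxo1, the insulin-restrained activator of G6pc and Pck1, by 0.70 ± 0.13 (adjusted p = 0.000756). Neither passed with the hepatocyte markers as scale (adjusted p = 0.0714 and 0.12). Ppargc1a, the fasting coactivator, did not pass with TMM (0.16 ± 0.22, adjusted p = 0.555) and was called higher with the hepatocyte markers as scale (0.61 ± 0.19, adjusted p = 0.00875).

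Klf15, a glucocorticoid-induced activator of gluconeogenesis, fell by 0.85 ± 0.16 from 282 ± 59.2 to 157 ± 22.2 CPM. Pde4b, a phosphodiesterase that breaks down cyclic AMP, rose by 1.07 ± 0.16 from 9.09 ± 1.85 to 19.1 ± 1.29 CPM. Hnf4a, the nuclear receptor that maintains hepatocyte genes, and Irs2, an insulin receptor substrate that insulin represses, were named after their values were seen. Hnf4a fell by 0.59 ± 0.11 with TMM but did not pass with total counts (adjusted p = 0.0655), and Irs2 rose by 0.61 ± 0.14.

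Of 12 other genes known to respond to fasting or insulin 4 rose, 2 fell and 6 did not pass, with a median of 0.37, near the 28.5% and 23.5% of all genes. With total counts 6 were higher and 1 lower (median 0.69), and with the hepatocyte markers as scale 8 were higher and 1 lower (median 0.80). Of all 14215 genes 6258 were higher and 1147 lower with total counts (median 0.34). On the marker scale 6996 were higher and 753 lower (median 0.44). Pdk4 and Irs2 rose, as did Fgf21, a fasting hormone (1.41 ± 0.37, from 2.26, 2.11 and 5.8 CPM to 11.3, 5.54 and 10.2 CPM, with overlap between the diets and a change of 2.03 without normal diet replicate 3), and Gadd45b (2.01 ± 0.20). Tat, the tyrosine aminotransferase induced by glucocorticoids and glucagon, fell with G6pc, from 3025 ± 804 to 1180.5 ± 225 CPM (-1.36 ± 0.19, adjusted p = 0.000158). In Tat, as in G6pc, normal diet replicate 1 was the highest library. The same held for Pck1, Pcx, Slc37a4, Gys2 and Ppp1r3c, but not for Fbp1, Slc2a2, Pygl and Ppp1r3b. Igfbp1, named after its values were seen, read 144, 45.4 and 53.6 CPM on normal diet and did not pass (0.55 ± 0.38, adjusted p = 0.242).

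Gluconeogenesis is stronger around the portal vein than around the central vein. Of 11 periportal markers 9 fell and 1 rose, with a median of -0.71, and of 12 pericentral markers 6 fell and 4 rose, with a median of -0.38, against 23.5% and 28.5% of all genes. With total counts 7 periportal markers were lower and 2 higher (median -0.39), and 2 pericentral markers were lower and 4 higher (median -0.054). Of all 14215 genes 1147 were lower and 6258 higher with that scaling. Among genes with a mean of at least 1 CPM, the periportal ones with the largest change were Cyp2f2 (-1.51 ± 0.15), Gls2 (-1.21 ± 0.14), Asl (-1.12 ± 0.16) and Arg1 (-0.99 ± 0.15), and the pericentral ones Cyp7a1 (-1.60 ± 0.39), Oat (-1.21 ± 0.25), Tbx3 (-0.57 ± 0.13) and Slc1a2 (-0.55 ± 0.12). Tbx3 and Slc1a2 did not pass with total counts (adjusted p = 0.155 and 0.146), and Cyp7a1 changed by -2.26 without CDAHFD replicate 2. The 4 pericentral markers that rose were Glul (0.31 ± 0.12), Gulo (0.31 ± 0.11), Axin2 (0.43 ± 0.16, with overlap between the diets) and Rhbg (1.48 ± 0.47). Rhbg was scarce, with 10, 2 and 16 counts on normal diet. The periportal marker that rose was Ctsc (0.70 ± 0.12). The genes that rose were named after their values were seen. G6pc, Ppp1r3c and Ppp1r3b had lower changes than each of the 11 periportal markers. The part of zonation in the changes was not tested.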

How the data were processed

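Per the labels' protocols, liver RNA was extracted with TRIzol and sequenced as stranded, ligation-prepared mRNA libraries. STAR 2.7.11a and the build GRCm39 stand in the submitters' processing notes. Counting tool, annotation and strand setting: not given in the sources used here. Raw counts per Ensembl gene and TPM were deposited by the authors for the 6 libraries. Columns beginning CD were read as CDAHFD and those beginning ND as normal diet, which left 0 sample columns unused. Of 56847 gene IDs 51911 matched a symbol. On GENCODE M21 models none of the 10 genes shared exon bases with another gene (0 genes). Genes were kept with filterByExpr (minimum count 10), scaled by TMM and fitted by edgeR 4.0.16 in R 4.3.3, with diet as the term over all 6 libraries and an adjusted p threshold of 0.05. The standard error is the coefficient over the root of the test's F. Counting error is small for the 10 genes, which had at least 270 counts in each library, and larger for isozymes under 100 counts. The code was tested on simulated data. Alternatives were other scalings, filters, DESeq2 1.42.0, limma 3.58.1 (voom, and log2(TPM + 1) and log2(TPM + 0.1)), a replicate block and each library left out.

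The 10 genes and all lists were chosen with earlier results of these data known. Named genes are the 10, their partners in the ratios, G6pc3, Gcgr, Insr, Foxo1 and Ppargc1a, and from each pathway list up to 4 passing genes of mean 1 CPM or more, ranked by absolute change. Others are said to be named after their values were seen. Promoters are from RefSeq (GRCm38.p6). A few genes that the rule names, and 1 of the 10 ratios, are not reported here.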

Additional observations from a re-analysis of the deposited data

How the results depend on the processing

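Of 170 results for the 10 genes under an alternative, 162 kept their direction and their side of the threshold. The exceptions were Slc2a2 with the hepatocyte markers as scale and Pcx, which passed as higher with total counts, the marker scale, log2(TPM + 1) and log2(TPM + 0.1), so that 1 of the 10 genes was higher under each of these 4. Pcx also changed sign without normal diet replicate 2 or CDAHFD replicates 2 or 3, in a range of -0.017 to 0.054 over the 6 libraries left out. Over all genes, calls numbered 4057 higher and 3347 lower with TMM, 6258 and 1147 with total counts, 6996 and 753 on the hepatocyte marker scale, 6449 and 897 with log2(TPM + 1), and 6433 and 897 with log2(TPM + 0.1). Gcgr turned to 0.18 with total counts, 0.28 on the marker scale, 0.22 with log2(TPM + 1) and 0.22 with log2(TPM + 0.1). Ppargc1a ranged from -0.11 to 0.34 with 1 library left out, turning below 0 without normal diet replicate 3. The Gys2 to Pygl ratio ranged from -0.15 to 0.19, below 0 without normal diet replicate 3 or CDAHFD replicate 1. The cause of these changes was not tested.

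The labels number the libraries of both diets 1 to 3 but do not say that equal numbers belong together. Deviations from the group means correlated across genes at -0.047, 0.069 and 0.12 for equal numbers, and not every library correlated best with its own number, so the libraries were not treated as paired. With the replicate block 7357 genes passed, against 7404 without it, 4046 higher and 3311 lower, and 9 of the 10 genes fell. Arms of 2 libraries, after 1 is left out, borrow their spread from the pooled fit. Isozymes with fewer than 100 counts in a library, such as Pck2, Gys1 and Pygm on normal diet, are the values that depth limits most.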
